A study of Macaca mulatta with 2 samples.

Results

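The genes described here are CCR4, CCR6, CCR7 and CCR9, 4 CC chemokine receptors among the 35432 genes counted in circulating CD4+CD8+ double-positive (DP) T cells. They were taken by name from the list of genes. The cells came from the peripheral blood of 1 untreated rhesus monkey (Macaca mulatta) aged 6 years. CD4+ cells were taken with releasable magnetic beads, and the CD8+ cells among them were then taken with CD8 beads. A 5′ single-cell RNA library and a library of antibody tags for surface CD4 and CD8 were made from the same droplets, and all 7923 cell barcodes occur in both. Levels are counts of unique molecular identifiers (UMIs), each standing for 1 captured RNA molecule, and are given as CPM, the count of a gene after scaling the summed UMIs of the cells to 1000000. The data are 1 sample, so cells are not replicates, no test was possible, and all 95% intervals cover counting error only.

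Chemokine receptors are surface proteins that couple to G proteins and steer cells along gradients of small secreted ligands. CCR7 binds CCL19 and CCL21 and brings naive and central memory T cells into lymph nodes, and CCR9 binds CCL25 and guides cells to the thymus and the small intestine. CCR6 binds CCL20 and is known from Th17 cells, regulatory T cells and B cells, while CCR4 binds CCL17 and CCL22 and is known from Th2 cells, regulatory T cells and skin-homing T cells. Cytotoxic effector T cells, which carry granzyme B (GZMB), usually have little CCR7.

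In the RefSeq annotation of Mmul_10, the genome the submitters name, all 4 are protein-coding genes. CCR4 (ENSMMUG00000022661) lies on the minus strand of chromosome 2 at 14756347 to 14759719, with its coding sequence in 1 of 2 exons. CCR9 (ENSMMUG00000023588) lies on the plus strand of the same chromosome at 101888276 to 101907994, with 3 exons in each of 2 transcripts. CCR6 (ENSMMUG00000005676) lies on the minus strand of chromosome 4 at 3562138 to 3589217, with 2 to 4 exons in 5 transcripts. CCR7 (ENSMMUG00000002102) lies on the minus strand of chromosome 16 at 51706765 to 51717446, with 3 exons.

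Of 7601 cells that passed the filter, 7311 (96.2%) had at least 1 UMI of CD3E, a chain of the T cell receptor complex, and are called CD3E cells here. Their depth ran from 509 to 23519 UMIs with a median of 3656. The T cell label therefore held for most cells, but B cell genes (among them MS4A1, CD79A, CD79B and PAX5) had 3 UMIs or more in 94 CD3E cells. A further 86 cells reached that number and had no UMI of CD3E, CD3D or CD3G. These 86, called B gene cells, had a median of 4137.5 UMIs. Results that move with B cell genes are given with those values beside them.

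CCR7 was the receptor found in most cells. Its UMIs were seen in 29.6% of CD3E cells (95% interval 28.5 to 30.6, Clopper-Pearson), or 2163 cells, at 144 CPM. CCR6 was seen in 7.62% (7.02 to 8.25) at 26.8 CPM, and CCR9 in 6.55% (6.00 to 7.14) at 29.0 CPM. CCR4 was seen in 2.41% (2.07 to 2.79) at 7.60 CPM. CCR9 thus had fewer positive cells than CCR6 at a similar level, because its UMIs were more concentrated: a CCR9-positive cell held 1.82 CCR9 UMIs on average and up to 10, and a CCR6-positive cell held 1.45 CCR6 UMIs and up to 5. CCR7-positive cells held 2.01 CCR7 UMIs and up to 13, and 52.5% of them had 2 or more. For CCR4, 139 of 176 positive cells had a single UMI.

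Detection depended on depth. Cells with a CCR6 UMI had a median of 4937 UMIs and cells without one 3582. After each cell was thinned to 2000 UMIs, which kept 6935 CD3E cells and dropped 376 shallower ones, the shares were 18.9% for CCR7, 4.10% for CCR6, 3.59% for CCR9 and 1.11% for CCR4. The order of the receptors was unchanged by thinning, and the intervals of CCR6 and CCR9 overlapped. A cell without a receptor UMI is therefore not a cell shown to lack the receptor.

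Free RNA in droplets could not be measured directly, so cells that might lack the receptors were looked at. In the B gene cells, CCR9 was seen in 3 of 86 (3.49%, 0.73 to 9.86) and CCR4 in 1 of 86 (1.16%, 0.029 to 6.31). These intervals are wide, and neither the CCR4 share nor the CCR9 share in CD3E cells was distinguishable from that in B gene cells. B cells express CCR6 and CCR7 themselves, and the shares there were 10.5% and 18.6%, so they give no background for these genes. The 1655 CD3E cells with 10 or more GZMB UMIs, with a median depth of 3416, gave lower shares. CCR4 was seen in 0.363% of them, CCR9 in 1.03%, CCR6 in 1.51% and CCR7 in 5.86%. All 4 shares in CD3E cells lay above these beyond counting error. The cells with GZMB are part of the CD3E cells and were not shown to lack the receptors. Their shares are therefore not a measure of free RNA.

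The first question was how the receptors divide cells by GZMB. All 4 were lower where GZMB was present, each by more than 2-fold. Cells with 0 GZMB UMIs numbered 4038, and cells with 3 or more numbered 2770. CCR7 went from 219 CPM in cells with 0 GZMB UMIs to 107 with 1 to 2, 32.3 with 3 to 9 and 27.3 with 10 or more. CCR9 went from 44.5 to 22.9, 6.76 and 3.71 CPM. CCR6 went from 40.3 to 16.5, 10.0 and 4.75 CPM.

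CCR4, the least abundant, went from 11.8 to 5.33, 1.25 and 1.19 CPM over the same groups. In all 4 genes the intervals of the 0 group did not overlap those of the groups with 3 or more GZMB UMIs. The log2 ratio of cells with 3 or more over cells with 0 was -3.28 for CCR4 (-4.21 to -2.47), -3.20 for CCR9 (-3.63 to -2.79), -2.91 for CCR7 (-3.08 to -2.74) and -2.58 for CCR6 (-2.96 to -2.23). These intervals overlapped, so the receptors are not ordered by them. Of 9920 genes that reached 50 UMIs in 1 of the groups, 5.39% were lower and 7.28% higher by 2-fold or more, and the median log2 ratio of all genes was 0.21.

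**Figure D1:**
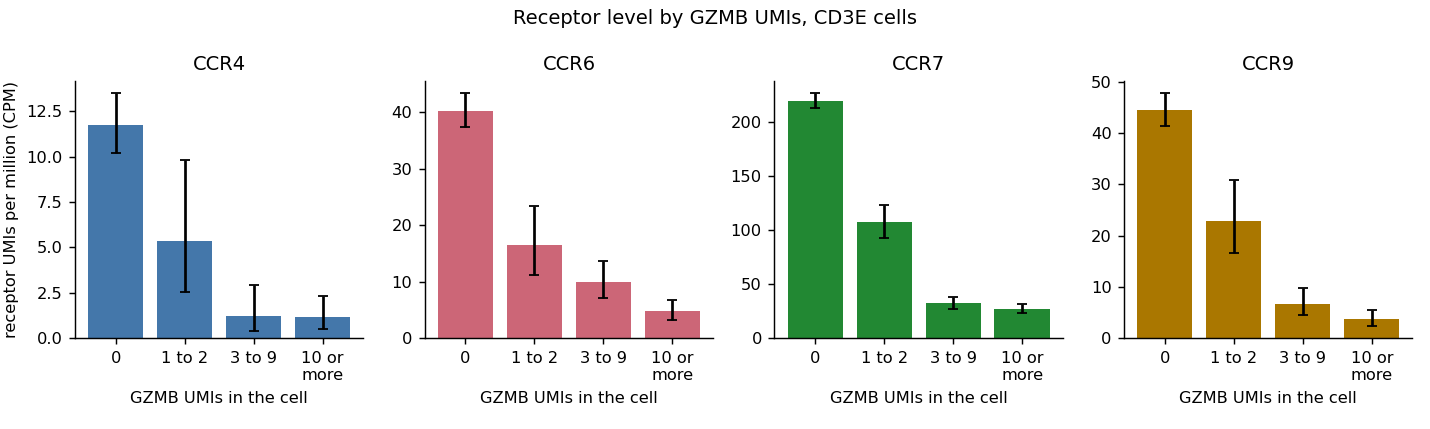
CPM of CCR4, CCR6, CCR7 and CCR9 (vertical axes, linear and starting at 0, 1 scale per gene) in CD3E cells grouped by GZMB UMIs in the cell (0, 1 to 2, 3 to 9, 10 or more). Bars are CPM and error bars exact 95% Poisson intervals. All 4 are highest at 0 GZMB UMIs, and CCR7 goes from 219 to 27.3 CPM.

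Cells that had both a receptor UMI and GZMB were unlike the other cells in depth. The 168 CCR7-positive cells with 3 or more GZMB UMIs had a median of 7420 UMIs, against 4286 in CCR7-positive cells with 0 and 3246 in cells with 3 or more GZMB UMIs and none of the 4 receptors. Of those 168, 44.6% were among the 5% of cells with most UMIs, and 17 carried at least 3 B gene UMIs. That many B gene UMIs were in 35 of the 1898 CCR7-positive cells with 0 GZMB UMIs. They were in 11 of the 2554 cells with 3 or more GZMB UMIs and none of the 4 receptors. The 168 had medians of 852 CD8 and 703.5 CD4 tag UMIs. These medians were 359 and 428 in the 1898 cells, and 337 and 306 in the 2554 cells. The 33 CCR9-positive cells with 3 or more GZMB UMIs had a median of 8040 UMIs, the 47 CCR6-positive ones 7617 and the 11 CCR4-positive ones 7519. No doublet caller was run, and the part of droplets with more than 1 cell in these values was not tested. Without the 5% of cells with most UMIs, the log2 ratio by GZMB was -3.68 for CCR7, -4.00 for CCR9 and -3.30 for CCR6, each further from 0 than with them.

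By CD8 tag the receptors differed from each other. Cells were split at 330.5 CD8 tag UMIs, which 90% of the B gene cells did not exceed, into 3778 above and 3533 at or below. The tag does not set those 3533 of 7311 CD3E cells apart from most B gene cells. The CD8 part of the DP label was therefore not shown for them by the tag. CCR6 was at 33.3 CPM above and 17.9 CPM below, a log2 ratio of 0.90 (0.68 to 1.13). CCR9 was at 31.8 and 25.1 CPM, a log2 ratio of 0.34 (0.14 to 0.54). The CPM of CCR7 was slightly lower above the limit, with 139 against 152 CPM and a log2 ratio of -0.13 (-0.22 to -0.04). Its share of positive cells went the other way, with 32.03% (30.54 to 33.54) above and 26.97% (25.52 to 28.47) at or below. After thinning to 2000 UMIs the shares were 18.79% and 18.94% with overlapping intervals, and the log2 ratio was -0.16 (-0.29 to -0.03). CCR4 was at 7.10 and 8.30 CPM, and its log2 ratio of -0.23 had an interval from -0.61 to 0.16 that includes 0. None of the 4 reached 2-fold, and among 10019 genes 1.11% were higher and 0.279% lower by 2-fold or more.

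A split into 5 bins of nearly equal cell number showed shapes that the single limit hid. Bin 2 ended at 278 CD8 tag UMIs, so it and the lowest bin lay under that limit. CCR6 was higher in each successive bin, with 14.6, 18.6, 25.2, 28.9 and 39.3 CPM from the lowest CD8 tag to the highest, and the intervals of neighbouring bins overlapped except between bins 4 and 5. After thinning, the share of CCR6-positive cells went from 2.41% in the lowest bin to 6.85% in the highest. CCR7 was U-shaped, with 219 CPM in the lowest bin, 107 and 111 in the next 2, and 138 and 150 in the top 2. CCR9 went from 19.2 CPM in the lowest bin to 35.5 in bin 4 and 31.4 in bin 5. CCR4 stayed between 5.61 and 9.50 CPM with overlapping intervals in the 5 bins.

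Cells with 3 or more GZMB UMIs made up 23.7% of the lowest CD8 bin and 33.3% to 46.5% of the others. Within cells with 0 GZMB UMIs, CCR6 still went from 19.3 CPM in the lowest bin to 52.2 in the highest. CCR7 was at 288 CPM (271 to 306) in the lowest bin and between 191 and 223 CPM in the other 4, so the rise towards the top bin was no longer seen and the high level at low CD8 was. CCR9 went from 25.9 CPM in the lowest bin to 59.6 in bin 4, then 41.0 in bin 5, and the intervals of bins 4 and 5 did not overlap. In these cells 0.766% of genes were higher and 0.328% lower above the CD8 limit by 2-fold or more, and none of the 4 receptors was among them.

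In cells with 3 or more GZMB UMIs the pattern by CD8 tag was different. CCR7 was at 2.75 CPM in the lowest bin and 77.7 CPM in bin 5, where 219 of its 313 UMIs lay. CCR6 was at 18.8 CPM in bin 5 and at or below 4.63 CPM in the other bins, and CCR9 at 14.9 CPM in bin 5 and at or below 2.73 CPM elsewhere. The median depth was 5100 UMIs in bin 5 and 3154.5 in bin 1. The log2 ratio of cells above the CD8 limit over the others was 2.25 for CCR7 (1.76 to 2.78), 2.20 for CCR6 and 1.86 for CCR9. For CCR4 it was 0.57 (-1.28 to 2.72). The CCR7 ratio had the reverse of its sign in all CD3E cells. This reversal was in CPM only, as the share of CCR7-positive cells at full depth was higher above the limit in both. In cells with 3 or more GZMB UMIs, 143 of 1490 above the limit and 25 of 1280 at or below were CCR7-positive.

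B cell genes moved with the CD8 tag. All 4 of the 5 listed B cell genes with enough UMIs were higher above the limit by 2-fold or more, among them MS4A1 at 30.3 against 6.40 CPM. With the cells of 3 or more B gene UMIs left out, the direction of CCR6, CCR7 and CCR9 by CD8 tag was the same. The part of B cell RNA in the CD8 pattern was otherwise not tested.

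**Figure D2:**
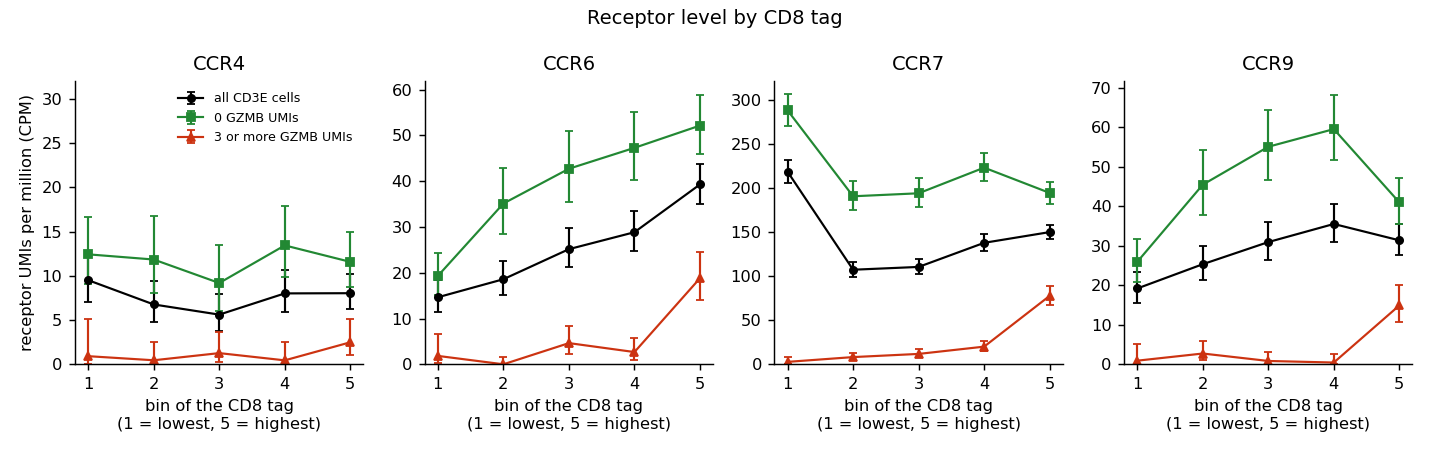
CPM of each receptor (vertical axes, linear, 1 scale per gene) in 5 bins of CD8 tag UMIs from lowest (1) to highest (5), for all CD3E cells (black circles), cells with 0 GZMB UMIs (green squares) and cells with 3 or more (red triangles), with exact 95% Poisson intervals. CCR6 climbs to 39.3 CPM in all CD3E cells, CCR7 is highest in bin 1 at 219 CPM, and in cells with GZMB the receptors sit mostly in bin 5.

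The CD8 tag was also compared from the side of the receptor, and its median was higher in the positive cells of all 4. CCR6-positive cells had a median of 528 CD8 tag UMIs and CCR6-negative cells 331. The medians were 477 and 336 for CCR9, 423.5 and 341 for CCR4, and 388 and 330 for CCR7. For CCR7 the lower quartile ran the other way, with 170 UMIs in positive and 198 in negative cells, beside the high CCR7 level of the lowest CD8 bin. CD4 tag medians were also higher in positive cells, for example 481 against 379 UMIs for CCR9, and positive cells were deeper in RNA too.

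The second question was whether the receptors exclude each other in single cells. Among all CD3E cells, 4545 had none of the 4, 2214 had 1, 495 had 2 and 57 had 3. Receptors were thus seen together, but doublets were not called, so these counts do not settle exclusion within a cell. No cell had all 4 (0 of 7311, where 3 counts would be a share of 0.0410%). With receptors this rare, cells with all 4 would be few without any exclusion, so this 0 says nothing on it. Of the 2766 cells with any of the 4 (37.8%), 552 had 2 or more. CCR7 was alone in 78.5% of its cells, CCR6 in 44.3%, CCR9 in 42.6% and CCR4 in 36.4%. These shares also depend on how common the other receptors are, and CCR7 is the most common. Shares expected for independent receptors were not computed, so the order is not a measure of exclusion.

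Depth rose with the number of receptors, from a median of 3347 UMIs with none to 4278.5 with 1, 5044 with 2 and 5679 with 3. The median CD8 tag rose alongside, from 318 to 374, 510 and 635 UMIs. At 2000 UMIs per cell, 1.98% of cells had 2 receptors and 0.101% had 3. B cell genes stood at 41.2 CPM in cells with none, 79.9 CPM with exactly 1 and 200.4 CPM with 2 or more. Over all cells with a given receptor, whatever else they carried, they stood at 92.0 CPM in CCR4 cells, 126 in CCR7 cells, 142 in CCR9 cells and 155 in CCR6 cells.

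Among the 6 pairs, CCR6 with CCR9 and CCR4 with CCR6 had the highest ratios. CCR9 was seen in 17.1% of 557 CCR6-positive cells and in 5.69% of CCR6-negative cells, and its level was 56.8 against 25.8 CPM, a log2 ratio of 1.14 (0.89 to 1.38). CCR6 was seen in 20.5% of 176 CCR4-positive cells and in 7.30% of the others, with a log2 ratio of 1.17 (0.75 to 1.56). For CCR7 with CCR6 the ratio was -0.03 (-0.17 to 0.12), so the CPM did not differ beyond counting error although 40.9% of CCR6-positive and 28.6% of CCR6-negative cells had a CCR7 UMI. The ratios were 0.29 for CCR7 by CCR4, 0.25 for CCR9 by CCR7 and 0.33 for CCR9 by CCR4, the last with an interval that includes 0. In the other direction, CCR4 by CCR7 was 0.83 (0.44 to 1.22). For CCR9 by CCR7 the interval ran from 0.05 to 0.44. It included 0 after thinning (-0.26 to 0.53) and with a mitochondrial limit of 10% (-0.04 to 0.39). It also did in cells with more CD4 tag UMIs than 90% of B gene cells (-0.01 to 0.39).

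Because all 4 genes were low in cells with GZMB, pairs were compared again in the 4038 cells with 0 GZMB UMIs. There CCR7 was lower in cells with each of the other receptors at full depth. It was at 156 CPM in CCR6-positive and 230 CPM in CCR6-negative cells, a log2 ratio of -0.56 (-0.72 to -0.41). CCR9 was at 33.9 CPM in CCR7-positive and 55.2 CPM in CCR7-negative cells, a log2 ratio of -0.70 (-0.91 to -0.49). CCR7 by CCR4 gave -0.28 (-0.52 to -0.04), but CCR7 was seen in 47.1% of CCR4-positive and 47.0% of CCR4-negative cells. Read the other way, CCR4 by CCR7 was -0.13 with an interval from -0.54 to 0.28 that includes 0. The ratios of CCR7 by CCR4 and of CCR9 by CCR7 had opposite signs in all CD3E cells and in cells without GZMB. For CCR4 this held beyond counting error in that 1 direction only.

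The other pairs kept their sign or could not be placed. CCR9 by CCR6 was 0.47 (0.20 to 0.73), CCR6 by CCR4 was 0.70 (0.27 to 1.11), and CCR9 by CCR4 was -0.42 (-1.02 to 0.12). Thinning cells without GZMB gave -0.83 for CCR7 by CCR6, -0.89 for CCR9 by CCR7 and 0.54 for CCR9 by CCR6, the last with an interval from -0.06 to 1.09. The pairs with CCR4 were not resolved at that depth, with -0.40 (-1.06 to 0.19) for CCR7 and 0.63 (-0.59 to 1.63) for CCR6. Leaving out cells with 3 or more B gene UMIs as well gave -0.57, -0.73 and 0.51. The receptors were still seen together: 176 cells without GZMB had both CCR7 and CCR9, and 202 had both CCR6 and CCR7. Their median depths were 4858.5 and 5031.5 UMIs, against 4286 in all CCR7-positive cells without GZMB. Doublets were not called, so exclusion within a cell was not tested.

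In cells with 3 or more GZMB UMIs 5 of the 6 pairs had a ratio above 0 beyond counting error. CCR6 by CCR4 rested on 1 cell, at 0.73 with an interval from -4.59 to 3.26. CCR9 by CCR4, among the 5, rested on 2 of 11 CCR4-positive cells, at 2.85 (0.53 to 4.48). Read the other way, CCR4 by CCR9 was 2.59 with an interval from -0.62 to 4.79 that includes 0. The largest was CCR9 by CCR6 at 3.77 (2.88 to 4.63), with 10 of 47 CCR6-positive cells also positive for CCR9. CCR9 by CCR7 was 2.45 and CCR7 by CCR6 was 1.49. These are the deep cells described above.

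**Figure D3:**
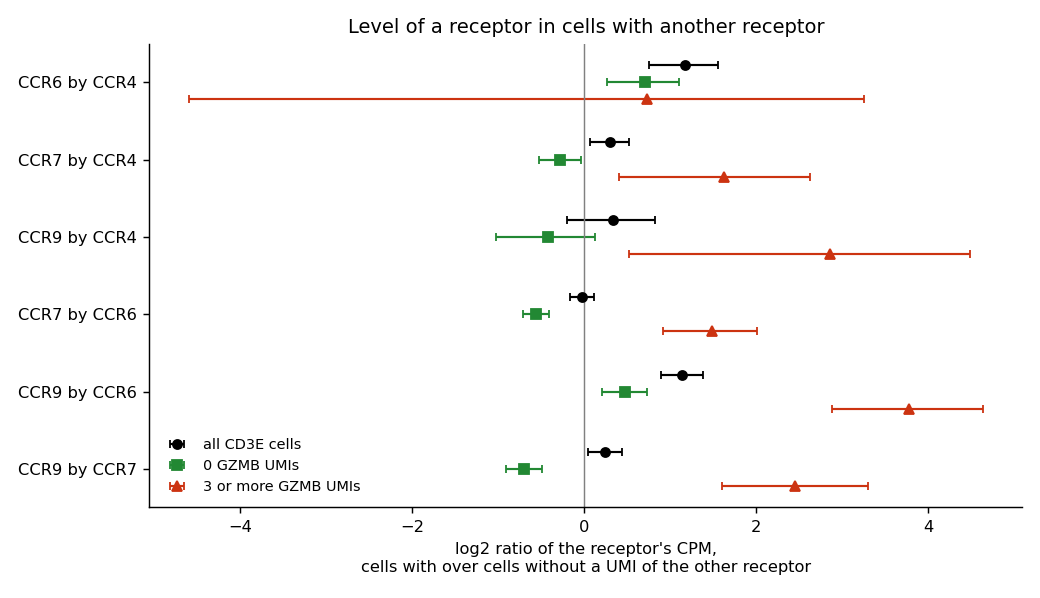
Log2 ratio of 1 receptor's CPM in cells with over cells without a UMI of another (horizontal axis), for the 6 pairs, in all CD3E cells (black circles), cells with 0 GZMB UMIs (green squares) and cells with 3 or more (red triangles), with exact 95% intervals. In cells without GZMB the 3 pairs with CCR7 lie below 0, from -0.70 to -0.28, while CCR9 by CCR6 and CCR6 by CCR4 lie above it.

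The receptors were then placed on 11 gates set by other genes, none of which is a CC receptor. Most of these genes are markers that the study used to name clusters of these same cells, so the gates are not independent of its clusters. Gates may overlap, 63.0% of CD3E cells were in none and 6.32% in more than 1. CCR4 had its highest CPM in cells with the Treg genes FOXP3 and IL2RA, IKZF2 or CTLA4, at 38.7 CPM (23.3 to 60.5, 87 cells). It was at 27.1 CPM in the 64 cells with CXCR5 and other Tfh genes. In the 340 cells with a UMI of the Th2 gene PTGDR2, or 2 or more UMIs of the Th2 gene GATA3, it was at 24.9 CPM. The intervals of these 3 gates overlapped. By share of cells, CCR4 was seen in 9.38% of the CXCR5 gate and 9.20% of the FOXP3 gate. No CCR4 UMI was seen in 100 cells with ZBTB16 and KLRB1, where the Clopper-Pearson interval reached 3.62%.

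CCR6 was highest in the 275 cells with the Th17 genes IL23R, IL17RE or IL17A, at 95.8 CPM (80.7 to 113). This was above every other gate beyond counting error. ICAM2 and ITGA1 cells followed at 55.2 CPM, ZBTB16 and KLRB1 cells at 49.4 and FOXP3 cells at 44.8, with overlapping intervals. CCR6 was the only one of the 4 whose level in the ZBTB16 and KLRB1 gate lay above its level in all CD3E cells beyond counting error.

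CCR7 was high in 3 gates whose intervals overlapped, with 334 CPM (285 to 389) in the FOXP3 gate, 279 CPM (263 to 295) in the 777 cells with the naive genes LEF1 and PECAM1 and 262 CPM (216 to 314) in the CXCR5 gate. By share of cells the CXCR5 gate came first, at 76.6% against 72.4% in the FOXP3 gate, and these intervals overlapped too. The 288 cells with EOMES and GZMK, genes of Tr1 and other effector memory cells, had 223 CPM of CCR7 while CCR4, CCR6 and CCR9 stood there at 3.28, 9.85 and 8.21 CPM. CCR9 was highest in the 304 cells with ICAM2 and ITGA1, at 104 CPM (89.1 to 120), above every other gate beyond counting error. The study gave ICAM2 and ITGA1 as genes of its CCR9+ cells in these data, so this peak was not an independent result. It was at 61.4 CPM in the Th17 gene gate and 42.1 CPM in LEF1 and PECAM1 cells, and at 6.77 CPM in the CXCR5 gate.

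All 4 were low in the 537 cells with 3 or more GZMB UMIs and a UMI of ADGRG1, a surface receptor of cytotoxic cells. There CCR7 was at 27.2 CPM, CCR6 and CCR9 each at 5.15 CPM, and CCR4 at 1.87 CPM.

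**Figure D4:**
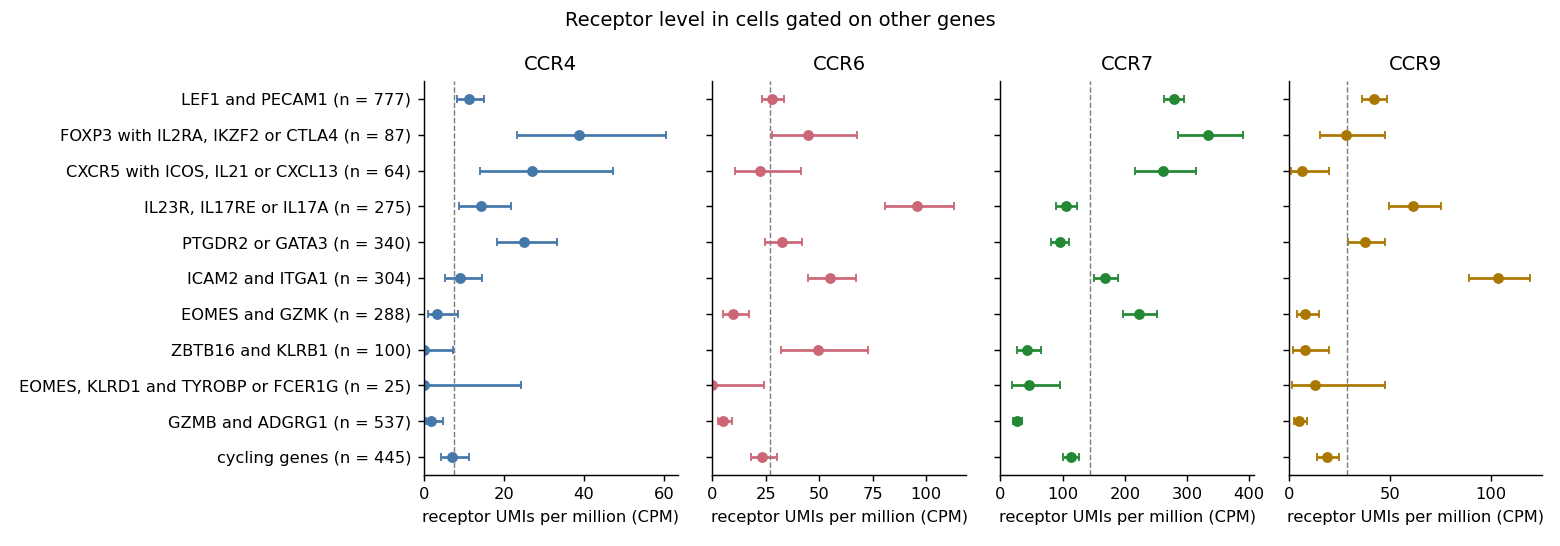
CPM of each receptor (horizontal axes, linear, 1 scale per gene) in CD3E cells gated on UMIs of other genes, with exact 95% Poisson intervals and the number of cells in parentheses. Dashed lines mark the level in all CD3E cells. The gates ask for at least 2 GATA3 UMIs and at least 3 GZMB UMIs where these genes are named. CCR4 is high in the FOXP3, CXCR5 and PTGDR2 or GATA3 gates, CCR6 in the IL23R, IL17RE or IL17A gate, CCR7 in the FOXP3, LEF1 and CXCR5 gates and CCR9 in the ICAM2 and ITGA1 gate.

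Genes that went with each receptor were found by the ratio of CPM + 10 in positive over negative CD3E cells. The first gene for CCR9 was LZTFL1, at 48.1 CPM in CCR9-positive and 6.01 CPM in CCR9-negative cells, a log2 ratio of 3.0 (2.66 to 3.34). LZTFL1 UMIs were seen in 21.5% of CCR9-positive cells and 2.21% of the others, and after thinning in 10.8% and 1.17%. LZTFL1 is a neighbour of CCR9 on chromosome 2, at 101823807 to 101843715 in RefSeq. It lies there on the opposite strand and 44560 bases away, so the RefSeq genes do not overlap. A single further locus without a gene name is annotated between them. The counts were made with another annotation, with Ensembl identifiers and no stated release. Whether the gene models overlap there was not tested. In cells with 0 GZMB UMIs the log2 ratio was 2.46, and without cells of 3 or more B gene UMIs it was 3.15.

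The other 5 leading genes of CCR9-positive cells were RHOB at 1.83, SOCS2, a suppressor of cytokine signalling, at 1.83, ITGA1, the collagen-binding integrin α1, at 1.82, EVA1C at 1.67 and THY1 at 1.31. The ICAM2 level was also higher, with a log2 ratio of 1.10 (0.98 to 1.22). ITGA4 and ITGB7, which form the gut-homing integrin α4β7, had ratios of 0.49 and 0.56, both above 0 beyond counting error and under 2-fold. ITGB1 was lower at -1.65 and ITGAL at -1.02. Of 12 homing partners, 2 were higher and 4 lower by 2-fold or more, where 1.89% of all 10018 genes were higher and 5.52% lower.

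CCR6-positive cells led with GPX1, a glutathione peroxidase, at a log2 ratio of 2.15 (1.93 to 2.36), FURIN at 1.93, the clock repressor NR1D1 at 1.85, the protease CTSL at 1.74 and CCDC50 at 1.65. IGHM, the heavy chain of IgM, had 1.68 in all CD3E cells and -0.38 (-2.31 to 1.07) without cells of 3 or more B gene UMIs, so its ratio rested on those cells. Among 23 lineage genes with enough UMIs, 4 were higher and 5 lower, beside 2.23% and 3.18% of all genes. Most lineage genes are markers that the study used to name clusters of these same cells. Counts of them, here and for the other receptors, are therefore not independent of its clusters. IL23R was higher at 2.93, IL2RA at 1.45 and IL17RE at 1.26. GZMK was lower at -2.41, and the effector genes CCL5, NKG7, TBX21 and PRF1 were lower too.

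CCR4-positive cells shared GPX1 (2.34), CTSL (2.14) and FURIN (1.87) with the leading genes of CCR6-positive cells, and added EGLN3 at 1.80. The first genes were CGA, the shared subunit of glycoprotein hormones, at 4.34, and the B cell chemoattractant CXCL13 at 3.79. CGA rested on few cells: 4 of 176 CCR4-positive cells held 74 CGA UMIs, up to 31 in 1 cell, and no thinned CCR4-positive cell had any. CXCL13 was seen in 15 CCR4-positive cells (8.52%) and in 0.813% of the others, and at 2000 UMIs per cell in 6.49% and 0.700%. No CCR4-positive cell had both. After thinning, GPX1 was at 0.81 with an interval from -0.64 to 1.95 and EGLN3 at 1.10 (-0.22 to 2.17), so both included 0.

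Lineage genes in CCR4-positive cells split, with 6 of 23 higher and 6 lower, beside 3.70% and 7.93% of all genes. IL23R was higher at 2.33, IL2RA at 2.15, FOXP3 at 1.83, CTLA4 at 1.02 and GATA3 at 1.01. TBX21, the Th1 and cytotoxic factor, was lower at -2.45 and EOMES at -1.44.

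CCR7-positive cells had higher CA6 at 2.33, LEF1 at 1.77, DUSP2 at 1.64 and CD7 at 1.47. LEF1, a factor of naive T cells, was seen in 52.1% of CCR7-positive and 13.8% of CCR7-negative cells. Without cells of 3 or more B gene UMIs, DUSP2 was at 0.89 and IGHM at 0.61 (-0.25 to 1.45) in place of 2.14, while LEF1 was at 1.82. In cells with 0 GZMB UMIs, LEF1 was at 0.95, DUSP2 at 0.78 and CD7 at 0.66, all 3 under 2-fold. Of the lineage genes, 7 of 23 were higher and 5 lower, beside 2.82% and 4.86% of all genes. The higher ones were LEF1, PECAM1 (1.59), CD7, TCF7 (1.13), FOXP3 (2.09), CTLA4 (1.47) and IL23R (1.12). FOXP3 was thus higher in CCR7-positive and CCR4-positive cells and lower in CCR9-positive cells, at -1.47 (-2.61 to -0.52). By gate the lower level with CCR9 was not seen. CCR9 was at 28.5 CPM in the FOXP3 gate and 29.0 CPM in the other CD3E cells, a log2 ratio of -0.03 (-0.90 to 0.73).

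The genes lowest against each receptor were in large part shared. GZMB had log2 ratios from -3.14 to -2.73 and the alpha globin gene HBA from -4.93 to -3.77 over the 4 receptors. By share of cells HBA differed less, with 2.77% to 4.31% of positive and 12.2% to 15.9% of negative cells. HBB had the lowest ratio for all 4, but its UMIs were found in 11 CD3E cells, so these ratios rest on few cells. KLRD1 was lower with CCR4 (-3.74), ZEB2 with CCR7 (-3.02) and TGFBR3 with CCR9 (-2.82). NK cell genes, of which KLRF1 had nearly all UMIs, stood at 120 CPM in cells with none of the receptors and 11.5 CPM in cells with 2 or more. Monocyte, platelet and plasmacytoid dendritic cell genes were each under 10 CPM in CD3E cells with 162, 5 and 175 UMIs in all.

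**Figure D5:**
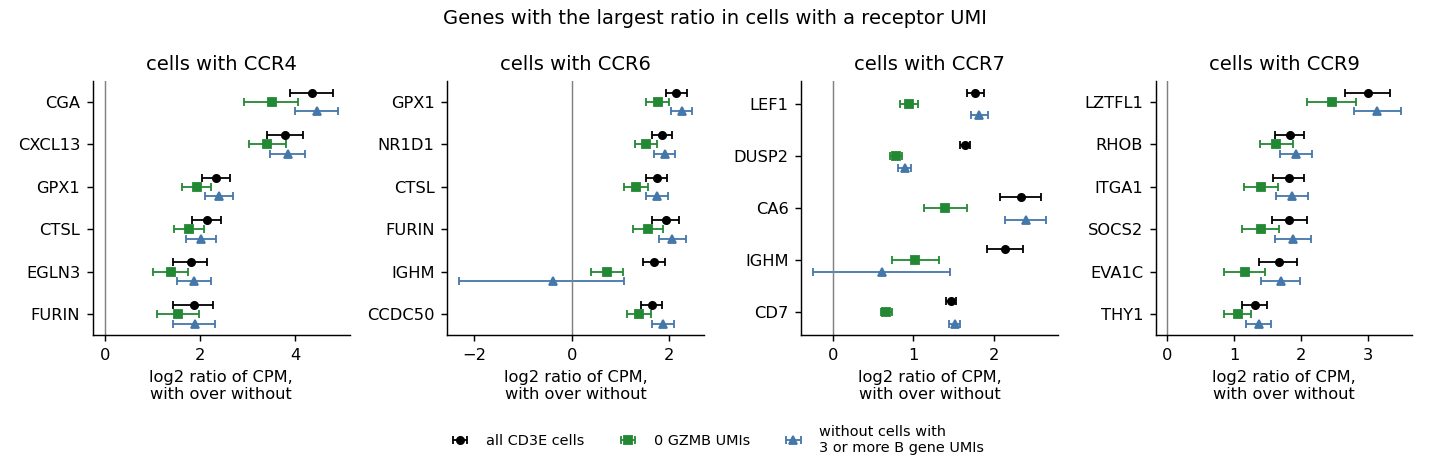
Log2 ratio of CPM in cells with over cells without a UMI of each receptor (horizontal axes) for the genes with the highest ratios that are named in the text, in all CD3E cells (black circles), cells with 0 GZMB UMIs (green squares) and without cells of 3 or more B gene UMIs (blue triangles), with exact 95% intervals. LZTFL1 leads for CCR9 at 3.0, and IGHM falls to -0.38 for CCR6 without the cells with B cell genes.

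The rest of the chemokine system differed from the 4 receptors in part. Of 14 other chemokine receptors, 7 had enough UMIs to compare. CX3CR1, the fractalkine receptor of cytotoxic cells, was lower with every one of the 4, from -3.67 with CCR4 to -2.70 with CCR6. CXCR5, which leads cells to B cell follicles, was higher with CCR7 at 1.91 (1.61 to 2.22), while CXCR6 was lower with CCR7 at -2.20 and CCR2 at -1.30. B cell genes were higher with CCR7 too, with MS4A1 at 1.58, CD79A at 1.33 and CD79B at 1.83. The part of cells with B cell genes in the CXCR5 ratio was not tested. Of 11 signalling genes, ARRB1, an arrestin that ends receptor signalling, was the 1 past 2-fold with each receptor, from -1.88 with CCR6 to -1.14 with CCR9. With CCR4 the ARRB1 ratio was -1.22 and its interval reached 0.01. Of all genes, 7.93% were lower by 2-fold or more with CCR4, 3.18% with CCR6, 4.86% with CCR7 and 5.52% with CCR9. A count of 1 in 11 therefore says little about the signalling genes as a list.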

How the data were processed

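The authors deposited raw counts of UMIs for each barcode. The submitters' processing notes name Cell Ranger 3.1.0, STAR 2.5.1b, Seurat 3.1.3 and Mmul_10. The release of the annotation was not stated in the sources used here. Gene positions come from RefSeq.

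The study's filter (200 to 4000 genes, no more than 20% mitochondrial UMIs) was applied, counting 13 named and 2 unnamed mitochondrial features, which left 7601 cells and 14459 genes. With the named features alone 7876 cells remain. Ratios are of summed counts, with exact binomial intervals. Shares have exact Clopper-Pearson and levels exact Poisson intervals, all at 95%. Intervals were tested on simulated data with independent UMIs, so clustering of UMIs within cells was not covered. For each receptor, the 6 genes with the highest and the 4 with the lowest ratio of CPM + 10 were named, among genes with a symbol and at least 50 UMIs in the higher group, without T cell receptor segments. Genes of fixed lists were added. Results for some of the genes so chosen are not reported here. The receptors and lists were chosen with earlier results of these data known. Doublets were not called. Leaving out cells with 3 or more B gene UMIs, asking for 2 UMIs of the other receptor, and the CD8 comparison within cells with GZMB were chosen after seeing the data. Python 3.11.15, numpy 2.4.6, scipy 1.17.1, pandas 2.3.3 and matplotlib 3.10.9 were used, with seed 1.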

Additional observations from a re-analysis of the deposited data

Results flagged for a closer look

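Receptor UMIs were also seen outside the CD3E cells, above the share that 3 counts would give. The B gene cells served as a reference for background and for the CD8 limit, and the other barcodes entered no comparison. In B gene cells, CCR6 was seen in 10.5% (4.90 to 18.9) and CCR7 in 18.6% (11.02 to 28.4) of 86 cells. In 290 cells that passed the filter without a CD3E UMI, the shares were 2.07% for CCR4, 8.28% for CCR6, 17.6% for CCR7 and 2.41% for CCR9. In 322 barcodes outside the cell filter they were 2.17%, 7.45%, 28.0% and 6.21% in the same order. The cells without CD3E were shallower, with a median of 2746.5 UMIs, and include the B gene cells.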

How the results depend on the processing

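No paired analysis was possible because there was 1 animal with 1 library of each kind. Over 18 results and 171 alternatives, 130 stayed within the counting interval of the reported value and 37 moved outside it. The last 4 changed the sign of a value whose interval had excluded 0. Among the others, 6 changed the sign of a value whose interval had included 0 (CCR4 by CD8 tag, CCR9 by CCR4 and CCR7 by CCR6). The cause of each change was not tested, apart from depth in thinned values. Thinned to 2000 UMIs, shares were 1.11% (CCR4), 4.10% (CCR6), 18.9% (CCR7) and 3.59% (CCR9), and log2 ratios by GZMB were -5.53, -3.59, -4.20 and -4.47 in that order. Without the 5% of cells with most UMIs, shares were 6.77% (CCR6), 27.9% (CCR7) and 5.95% (CCR9), and ratios by GZMB -3.30, -3.68 and -4.00. Means over cells gave -4.29 (CCR4), -3.43 (CCR6), -3.92 (CCR7) and -4.31 (CCR9) by GZMB. A GZMB limit of 10 UMIs gave -3.08 for CCR6, and a limit of 1 gave -2.43 for CCR7 and -2.56 for CCR9.

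By CD8 tag within cells of 3 or more GZMB UMIs, ratios were 0.57 (CCR4), 2.20 (CCR6), 1.86 (CCR9) and 2.25 (CCR7, reversed). Of the pairs, cells without GZMB gave 0.70 (CCR6 by CCR4), -0.42 (CCR9 by CCR4), -0.56 (CCR7 by CCR6) and 0.47 (CCR9 by CCR6), and reversed CCR7 by CCR4 (-0.28) and CCR9 by CCR7 (-0.70). Thinning gave 0.58 for CCR7 by CCR4 and -0.21 for CCR7 by CCR6, and means over cells 0.53, 0.13 and, for CCR9 by CCR7, 0.64. At least 2 UMIs of the other receptor gave 1.32 (CCR9 by CCR4), -0.61 (CCR7 by CCR6), 1.38 (CCR9 by CCR6) and -0.10 (CCR9 by CCR7, reversed). Without the deepest cells CCR9 by CCR4 was -0.51. Thinned CCR9 by CCR4 gave no value, as 0 of 77 cells had both. Depth limits CCR4 most, with 229 UMIs.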

Other observations

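Ligands of the 4 receptors were nearly absent from the receptor-bearing cells. In CD3E cells CCL17, CCL22, CCL19 and CCL21 had 0 UMIs, CCL20 had 7 and CCL25 had 42 in 41 cells, too few for a comparison.

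By GZMB, other chemokine receptors went in both directions. CX3CR1 was higher in cells with 3 or more GZMB UMIs by a log2 ratio of 5.99 (5.57 to 6.45) and CXCR6 by 1.43 (1.05 to 1.81), while CXCR5 was lower at -1.43 (-1.84 to -1.04), the direction of CCR4, CCR6, CCR7 and CCR9. By CD8 tag, FOXP3 was lower above the limit at -1.36 (-1.74 to -0.99).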
